A study of Mus musculus with 6 samples.

Results

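The cell cycle and proliferation genes described here are a fixed set of 40 genes, chosen by symbol: every array probe annotated to a member was taken, whatever its values. They hold the replication licensing factors and nucleotide synthesis enzymes of S phase, the cyclins and kinases of G1 and of the G1/S step with E2f1, the genes of G2 and mitosis, and the inhibitors of cyclin-dependent kinases. Of the 40 genes, 38 had a probe under their symbol and 32 were expressed, out of 11097 expressed genes with a symbol on the array. Expressed means that a probe had a detection p under 0.05 on at least 3 of the 6 arrays, and a gene is represented by its brightest expressed probe. The proliferation marker Mki67 and the mitotic cyclin gene Ccnb1 had no probe under their symbols and have no value here.

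Retinas came from 3 mice labelled Lrp5-/- (strain B6.129P2-Lrp5tm1Dgen/J, a targeted allele present in every cell) and 3 WT mice (C57BL/6J), all at postnatal day 8 (P8). RNA of each mouse was hybridized to 1 Illumina Mouse-WG6 array, and the normalized signal is on a linear scale with its background left in. The strains are separate stocks, so background strain and genotype cannot be told apart. The only Lrp5 probe that was detected, ILMN_2942097, was brighter in the retinas labelled Lrp5-/- (95.4 against 54.1), the reverse of what loss of the transcript would give. Where that probe lies relative to the deleted part is not known here, so it does not check the labels, and group names below are those of the labels.

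Cells enter S phase when cyclin D with Cdk4 or Cdk6, and then cyclin E with Cdk2, free E2F factors to switch on the replication genes. Genes of G2 and mitosis are switched on later, through promoter elements called the cell cycle genes homology region (CHR) and the CCAAT box, and CDK inhibitors such as p27 and p57 hold cells out of the cycle. In the mouse retina, progenitors leave the cycle during the days after birth, from the center to the periphery, while endothelial cells of the growing vessels and some glia still divide.

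Promoter windows from RefSeq (GRCm38.p6, 250 bases before to 50 after each transcription start) were found for 32 of the 40 genes. They are shown as a description of the members, and no link between motifs and array signals was tested. Mitosis members without an expressed probe (Mki67, Ccnb1, Ccnb2, Bub1, Cenpe and Ube2c) are counted too. The CHR letters TTTGAA, on either strand, were in the windows of 11 of 15 G2 and mitosis members, against 20.2% of 27025 genes, and CCAAT was in 14 of the 15, against 41.1%. Both were in 11 of the 15, against 7.97% of all genes. CCAAT was as frequent in the S phase members (8 of 9), while TTTGAA was in 1 of those 9. Of 9 S phase members, 4 (Mcm3, Mcm5, Mcm6 and Mcm7) held an E2F motif (TTTCCCGC, TTTCGCGC, TTTGCCGC or TTTGGCGC, either strand), against 2.6% of all genes, and Cdk1 and Cdk2 held one as well. Matches can overlap, as the E2F and CCAAT letters near the start of Mcm7 do. A match is a description of letters and not a shown binding site. The windows below run from 170 bases before to 30 bases after the start, 5′ to 3′ on the strand of the gene, and capitals mark CHR and CCAAT letters in the mitosis genes Cdk1, Cdc20, Cenpa and Top2a and E2F letters in the licensing genes Mcm6 and Mcm7 (for Mcm7, the first of its windows). The Cdk1 window lies at chr10:69352883-69353082 (minus strand), Cdc20 at chr4:118437314-118437513 (minus), Cenpa at chr5:30666716-30666915 (plus), Top2a at chr11:99024160-99024359 (minus), Mcm6 at chr1:128359676-128359875 (minus) and Mcm7 at chr5:138171854-138172053 (minus).
Cdk1: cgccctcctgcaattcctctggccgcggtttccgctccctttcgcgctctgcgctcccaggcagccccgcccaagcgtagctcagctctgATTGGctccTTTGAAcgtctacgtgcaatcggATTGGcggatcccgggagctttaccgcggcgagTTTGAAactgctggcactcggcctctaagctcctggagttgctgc
Cdc20: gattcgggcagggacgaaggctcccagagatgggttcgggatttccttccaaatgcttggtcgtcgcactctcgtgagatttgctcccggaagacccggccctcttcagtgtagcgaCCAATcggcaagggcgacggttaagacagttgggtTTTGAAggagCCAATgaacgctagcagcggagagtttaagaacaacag
Cenpa: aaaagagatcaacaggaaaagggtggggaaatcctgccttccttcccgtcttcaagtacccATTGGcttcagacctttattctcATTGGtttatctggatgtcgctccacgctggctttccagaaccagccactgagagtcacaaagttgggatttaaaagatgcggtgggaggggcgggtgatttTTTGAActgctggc
Top2a: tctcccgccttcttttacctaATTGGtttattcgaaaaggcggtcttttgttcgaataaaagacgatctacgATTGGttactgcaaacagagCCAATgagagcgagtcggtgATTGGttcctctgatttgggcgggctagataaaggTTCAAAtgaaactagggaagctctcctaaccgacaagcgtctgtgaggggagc
Mcm6: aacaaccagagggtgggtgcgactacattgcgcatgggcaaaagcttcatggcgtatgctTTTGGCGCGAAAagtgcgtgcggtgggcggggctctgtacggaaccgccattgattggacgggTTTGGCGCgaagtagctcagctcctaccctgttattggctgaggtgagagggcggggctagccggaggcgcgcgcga
Mcm7: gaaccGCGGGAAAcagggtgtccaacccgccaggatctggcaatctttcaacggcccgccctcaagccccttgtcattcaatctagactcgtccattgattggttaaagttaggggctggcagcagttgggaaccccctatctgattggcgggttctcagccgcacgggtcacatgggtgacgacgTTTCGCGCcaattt

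The arrays differed in brightness and in the signals of genes of other tissues. The mean non-normalized signal was 313 to 319 on the Lrp5-/- arrays and 199.97, 431 and 304 on WT arrays 1, 2 and 3, and WT replicate 1 had 18167 detected probes against 20286 to 21388 on the others. The median normalized signal of undetected probes was 46.9 to 49.2. All 10 probed rod genes were expressed, and so were 6 of 9 probed lens genes and 6 of 10 of pigment epithelium. Because these are whole retinas, fewer dividing cells and less RNA per dividing cell cannot be told apart. Of 15 expressed endothelial genes 1 was called lower in the Lrp5-/- group (Cd93, log2 fold change -0.90, adjusted p = 0.0302 from limma), against 0.116% of all expressed probes in either direction. By the unadjusted p 11 were lower and 1 was higher, against 4.85% of all probes, and the list median was -0.46. Without WT replicate 1, 7 of the 15 were called lower, against 0.41% of all probes in either direction. The part of dividing endothelial cells in the members' values was not tested.

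Most members were detected in retina at P8, with arrays of both groups counted, but several core mitosis genes were not. Of the 32 expressed genes, 27 were detected on all 6 arrays. Ccne1 and Kif11 were each detected on 1 of 3 WT arrays, and on 2 and 3 Lrp5-/- arrays. Cdk6, Pcna and Rrm2 were detected on 2 WT arrays. All 10 S phase members, all 9 G1 and G1/S members and all 3 CDK inhibitors were expressed, against 10 of 16 probed genes of G2 and mitosis. The other 6, namely the cyclins Ccna2 and Ccnb2, the checkpoint kinase Bub1, the mitotic motors Cenpe and Kif20a and the ubiquitin-conjugating enzyme Ube2c, were detected on 0 arrays with any of their 7 probes. Their signals of 34.7 to 57.3 lay around those of undetected probes, so no fold is given for them. Some probes of Top2a and Cdk1, which were expressed by another probe, were also undetected on every array. An undetected probe therefore does not show that a gene was silent.

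No member gene passed the adjusted threshold between Lrp5-/- and WT retinas. At an adjusted p under 0.05 (limma, Benjamini-Hochberg over 20721 expressed probes) 0 of 32 genes were called, against 0.116% of all expressed probes, and the smallest adjusted p was 0.944. With an unadjusted p under 0.05 there were 4 genes (12.5% of the 32), Mcm7 and Cdkn1c higher and Plk1 and Pcna lower, against 4.85% of all probes. With a fold of at least 1.3 added, 0 genes were left, against 0.83%. The groups did not overlap for 3 genes, Mcm7 and Cdkn1c higher and Plk1 lower, against 10.7% of all probes.

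The fold changes were small and their errors set how small a change could be seen. Log2 fold changes, Lrp5-/- over WT, ran from -0.46 to 0.24, with standard errors of 0.09 to 0.31 and a median of 0.12. The 95% interval lay inside a 2-fold change in either direction for 31 of the 32 genes, all but Bub1b, and inside a 1.3-fold change for 10. These 10 were Cdk6, Ccnd2, Ccnd3, Ccne1, Ccne2, Mcm3, Rrm2, Kif11, Cdkn1a and Cdkn1b, and several of them were close to background, where folds of the signal understate those of the mRNA. Fold changes were below 0 for 23 genes and the median over members was -0.11, against 0.00 for all expressed probes. That lean came with 1 array: without WT replicate 1 the median was 0.04 and 12 genes were below 0.

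WT replicate 1 carried the highest signal of all 6 arrays for 20 of the 32 members (62.5%), against 29.2% of all expressed probes. Among the G2 and mitosis members it was highest for 9 of 10, in S phase for 7 of 10, in G1 and G1/S for 4 of 9 and among CDK inhibitors for 0 of 3. Lrp5-/- replicate 3 was second for 14 of these 20 genes. The counts of members highest on WT 1 were the same with quantile normalization and with neqc, a background correction, against 25.0% of all expressed probes under each. With non-normalized signals, where WT 1 was the dimmest array, it was highest for 1 member (3.12%), against 0.0531% of all probes. With arrays scaled only to a common median, which left all probes of WT 1 lower, WT 1 was highest for 5 members, 4 of them mitosis genes, against 2.92% of all probes. The share of all expressed probes with Lrp5-/- 3 second was not computed, so the 14 of 20 has no base to be set against.

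**Figure D1:**
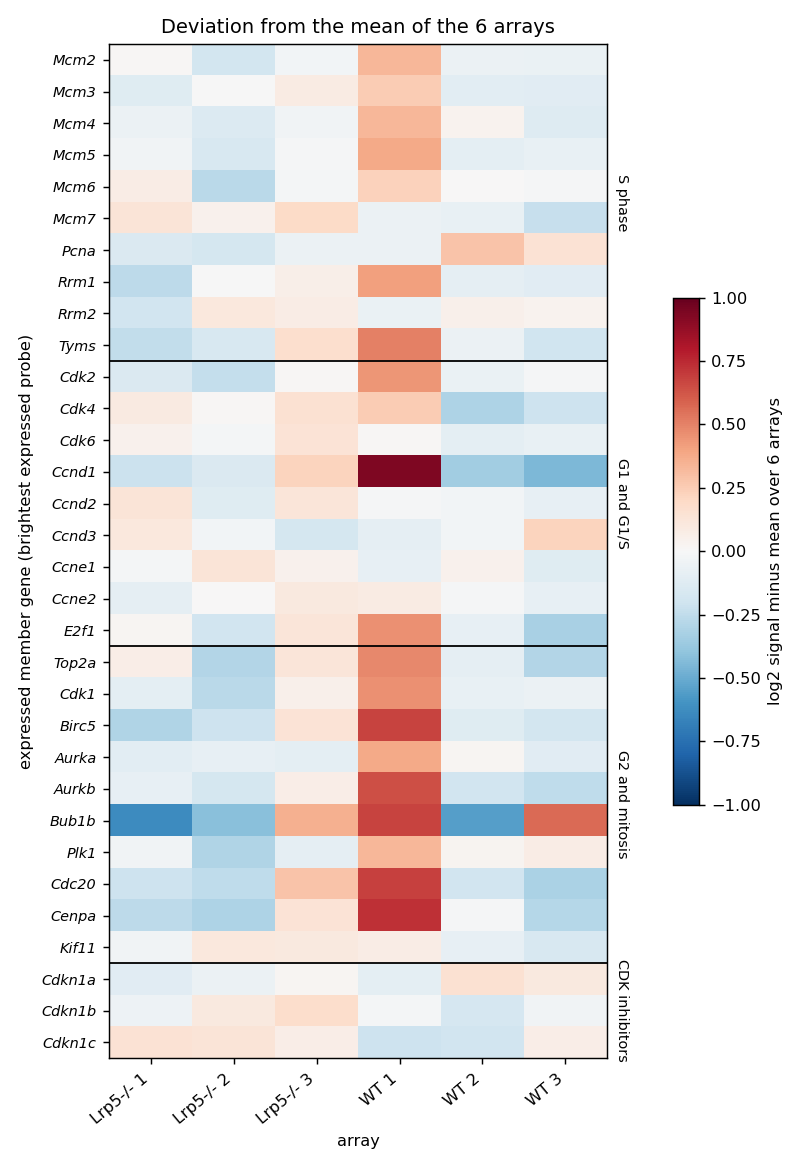
Heat map of the log2 normalized signal of the 32 expressed members minus its mean over the 6 arrays, with genes in rows by role and arrays in columns. The WT 1 column is above the mean through most of the S phase and mitosis rows and not in the CDK inhibitor rows, and Ccnd1 and Cenpa are among its highest cells.

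Of the mitosis genes, Cenpa, the histone H3 variant that marks centromeres, had signals of 400.9, 388.9 and 530.6 in Lrp5-/- retinas 1 to 3 and 797.3, 477.2 and 395.4 in WT retinas 1 to 3. WT 1 was 1.99 times the median of the other arrays, Lrp5-/- 3 came next, and the groups overlapped. The log2 fold change was -0.29 (SE 0.22, adjusted p = 0.987), and 0.00 (SE 0.14) without WT 1. Birc5, the survivin subunit of the chromosomal passenger complex, gave 84.8, 90.2 and 114.5 in Lrp5-/- and 166.9, 95.8 and 91.9 in WT retinas. Its WT 1 signal was 1.82 times the median of the others, with the same array second. Cdc20, the activator of the anaphase-promoting complex, read 142.0, 137.5 and 200.3 against 263.3, 143.7 and 131.5. Aurkb, the kinase of the passenger complex, read 69.3, 65.1 and 77.0 against 114.8, 64.3 and 61.5. Both again had WT 1 highest and Lrp5-/- 3 second.

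The mitotic kinase gene Cdk1 gave 83.2, 73.8 and 91.9 in Lrp5-/- and 121.8, 84.4 and 85.2 in WT retinas. Top2a, the topoisomerase that untangles replicated chromosomes, gave 92.5, 72.3 and 96.4 against 123.5, 83.2 and 72.2. In both, WT 1 was above every other array (1.44 and 1.48 times their median) while WT 2 and WT 3 lay within the Lrp5-/- range or within 1 unit of it. Aurka, the kinase of the spindle poles, was also highest on WT 1, with 107.9, 109.2 and 108.3 against 150.5, 117.5 and 107.1. Kif11, the spindle motor, was the exception among the expressed mitosis genes. Its signals of 62.1, 68.5 and 68.3 against 67.3, 60.2 and 57.0 were near background, and it was detected on 1 of 3 WT arrays.

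Plk1, the kinase that drives mitotic entry and spindle assembly, was the mitosis gene with the smallest p. It read 122.2, 101.5 and 117.6 in Lrp5-/- and 158.1, 127.4 and 131.9 in WT retinas, and every Lrp5-/- value was under every WT value. The log2 fold change was -0.29 (SE 0.11, unadjusted p = 0.0258, adjusted p = 0.959 from limma). Without WT 1 it was -0.19 (SE 0.10, unadjusted p = 0.0783), and the call on the unadjusted p was lost.

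Bub1b, the spindle checkpoint kinase BubR1, had the largest fold change among the members and the largest error. The probe ILMN_2774007 read 126.4, 146.5 and 249.9 in Lrp5-/- and 311.9, 133.9 and 290.2 in WT retinas. It was bright on Lrp5-/- 3, WT 1 and WT 3 and dim on the other 3 arrays, so the groups overlapped, with a log2 fold change of -0.46 (SE 0.31, adjusted p = 0.987). The second expressed probe, ILMN_2985969, read 65.6, 71.2 and 92.7 against 73.9, 62.8 and 95.7, with a log2 fold change of -0.01. The same 3 arrays had the most signal of 6 expressed genes of pigment epithelium and melanocytes, whose sums were 1830, 1680 and 3540 in Lrp5-/- and 3780, 1620 and 4650 in WT retinas. The part of that tissue in the Bub1b values was not tested.

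**Figure D2:**
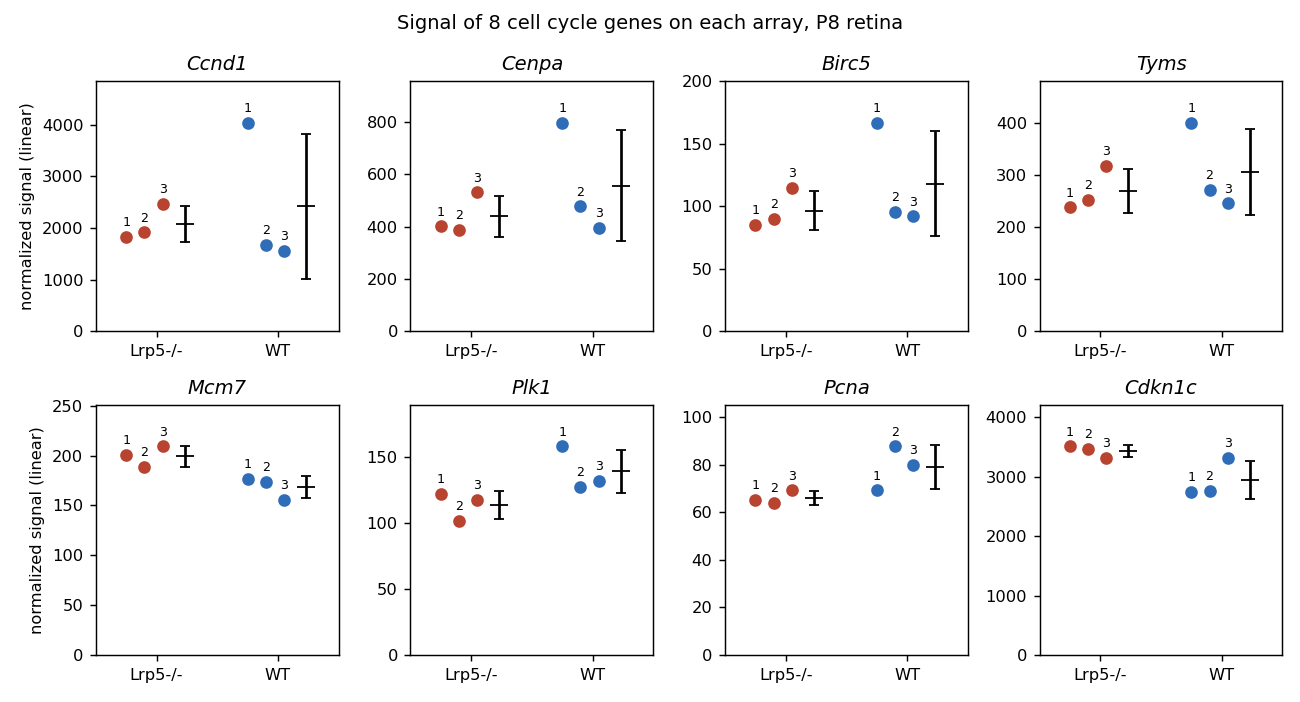
Normalized signal (linear scale, from 0) of 8 members on each array, with Lrp5-/- retinas in red and WT in blue, numbered by replicate, and the mean ± SD beside each group. WT 1 stands above the others for Ccnd1, Cenpa, Birc5 and Tyms, and the groups lie apart without overlap for Mcm7, Plk1 and, by a narrow gap, Cdkn1c.

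In S phase, the licensing factors Mcm2 to Mcm6, subunits of the replicative helicase, were also highest on WT 1. It was 1.31, 1.28, 1.31, 1.37 and 1.18 times the median of the other arrays for Mcm2, Mcm3, Mcm4, Mcm5 and Mcm6. Mcm5 read 312.3, 285.4 and 316.7 in Lrp5-/- and 415.6, 298.1 and 304.2 in WT retinas, so that WT 2 and WT 3 lay within the Lrp5-/- range. Its log2 fold change was -0.14 (SE 0.13) on all arrays and 0.02 (SE 0.09) without WT 1. Tyms, the thymidylate synthase and the S phase gene with the widest range over arrays, gave 238.2, 252.9 and 318.0 against 401.2, 271.6 and 245.8. Rrm1, the large subunit of ribonucleotide reductase, gave 264.6, 316.3 and 328.6 against 421.5, 296.7 and 291.8, while its partner Rrm2 was near background at 53.8 to 66.1. A second Rrm1 probe, ILMN_1258715, read 252.2, 229.6 and 260.9 against 252.6, 225.9 and 222.7, and was highest on Lrp5-/- 3. Some dimmer probes, such as ILMN_2803399 (Mcm6), ILMN_1247173 (Tyms) and ILMN_2698767 (Cdc20), were not highest on WT 1. The other expressed probes of Mcm6, Tyms and Cdc20 were highest there.

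Mcm7, a further helicase subunit, was highest on Lrp5-/- 3. Its probe ILMN_1213616 read 200.6, 188.5 and 209.2 in Lrp5-/- (199 ± 10.4, SD, n = 3 mice) and 176.3, 173.7 and 155.9 in WT retinas (169 ± 11.1, n = 3). Every Lrp5-/- value was above every WT value, and WT 1 was 0.935 times the median of the other arrays. The log2 fold change was 0.24 (SE 0.09, unadjusted p = 0.0238, adjusted p = 0.944 from limma), and 0.28 without WT 1. A second Mcm7 probe, ILMN_2673889, was near background at 58.5 to 69.4 and gave 0.04.

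Pcna, the sliding clamp of the replication fork, had a negative fold change. Its only probe read 65.2, 63.8 and 69.2 in Lrp5-/- and 69.2, 87.7 and 79.8 in WT retinas, and it was detected on 2 of 3 WT arrays. On WT 1, where it was undetected, the dimmest detected probe of the array read 69.8. The log2 fold change was -0.25 (SE 0.10, unadjusted p = 0.0346, adjusted p = 0.987 from limma). Here WT 1 was the lowest WT array, and without it the value was -0.34 (SE 0.09, unadjusted p = 0.00288, adjusted p = 0.22).

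Ccnd1, the cyclin D1 of retinal progenitors, had the widest range over arrays of all members. The probe ILMN_1221503 read 1823.4, 1913.0 and 2469.3 in Lrp5-/- and 4035.4, 1664.4 and 1549.7 in WT retinas. WT 1 was 2.21 times the median of the other arrays, and Lrp5-/- 3 came second, while WT 2 and WT 3 were the lowest of the 6. Over all arrays the log2 fold change was -0.09 (SE 0.29, adjusted p = 0.994), and without WT 1 it was 0.35 (SE 0.12, unadjusted p = 0.0167, adjusted p = 0.458 from limma). The other 2 probes of Ccnd1 had the same order of arrays at the top, with WT 1 at 3231.5 and 688.6 and Lrp5-/- 3 at 1941.6 and 523.5.

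Cdk4, the kinase partner of cyclin D1, read 949.2, 896.9 and 990.8 in Lrp5-/- and 1063.0, 720.6 and 772.6 in WT retinas. The WT group held the highest array and the lowest ones. Its log2 fold change was 0.17 (SE 0.13) on all arrays and 0.34 (SE 0.09, unadjusted p = 0.00281, adjusted p = 0.217 from limma) without WT 1, and its second probe gave 0.07 and 0.24. E2f1, the transcription factor that the D and E cyclins release, was 337.5 on WT 1 and 196.9 to 268.3 elsewhere, and Cdk2 was 418.8 on WT 1 and 261.2 to 311.2 elsewhere. The other G1 members did not stand out on WT 1, where their signals were 0.917 (Ccne1), 0.957 (Ccnd3), 1.01 (Ccnd2), 1.02 (Cdk6) and 1.06 (Ccne2) times the median of the other arrays. Their log2 fold changes were between -0.07 and 0.11.

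Of the 3 CDK inhibitors, 0 were highest on WT 1. Cdkn1c (p57) read 3510.6, 3461.8 and 3313.0 in Lrp5-/- (3430 ± 103, SD, n = 3 mice) and 2747.0, 2768.4 and 3310.7 in WT retinas (2940 ± 319, n = 3). The groups did not overlap, but the lowest Lrp5-/- and the highest WT array were 3313.0 and 3310.7. The log2 fold change was 0.23 (SE 0.10, unadjusted p = 0.0434, adjusted p = 0.987 from limma), and 0.18 without WT 1 (unadjusted p = 0.0943). Cdkn1b (p27), which marks cells that have left the cycle, gave 225.3, 249.5 and 264.3 against 231.2, 208.5 and 228.3, with a log2 fold change of 0.14 (SE 0.10, adjusted p = 0.987). Cdkn1a (p21), a target of p53, gave 226.7, 234.8 and 248.3 against 228.4, 271.8 and 261.7, with -0.10 (SE 0.10, adjusted p = 0.987). Its dimmer expressed probes differed in sign, with log2 fold changes of -0.23 (ILMN_2846776) and 0.06 (ILMN_2846775).

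Without WT replicate 1, 0 of the 32 genes passed the adjusted threshold, against 0.41% of all probes, and 0 passed an unadjusted p with a 1.3-fold change, against 1.38%. With the unadjusted p alone there were 4 (Cdk4, Ccnd1 and Mcm7 higher and Pcna lower), against 8.09% of all probes. Mcm7 and Pcna were the genes past the unadjusted p both with and without this array.

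**Figure D3:**
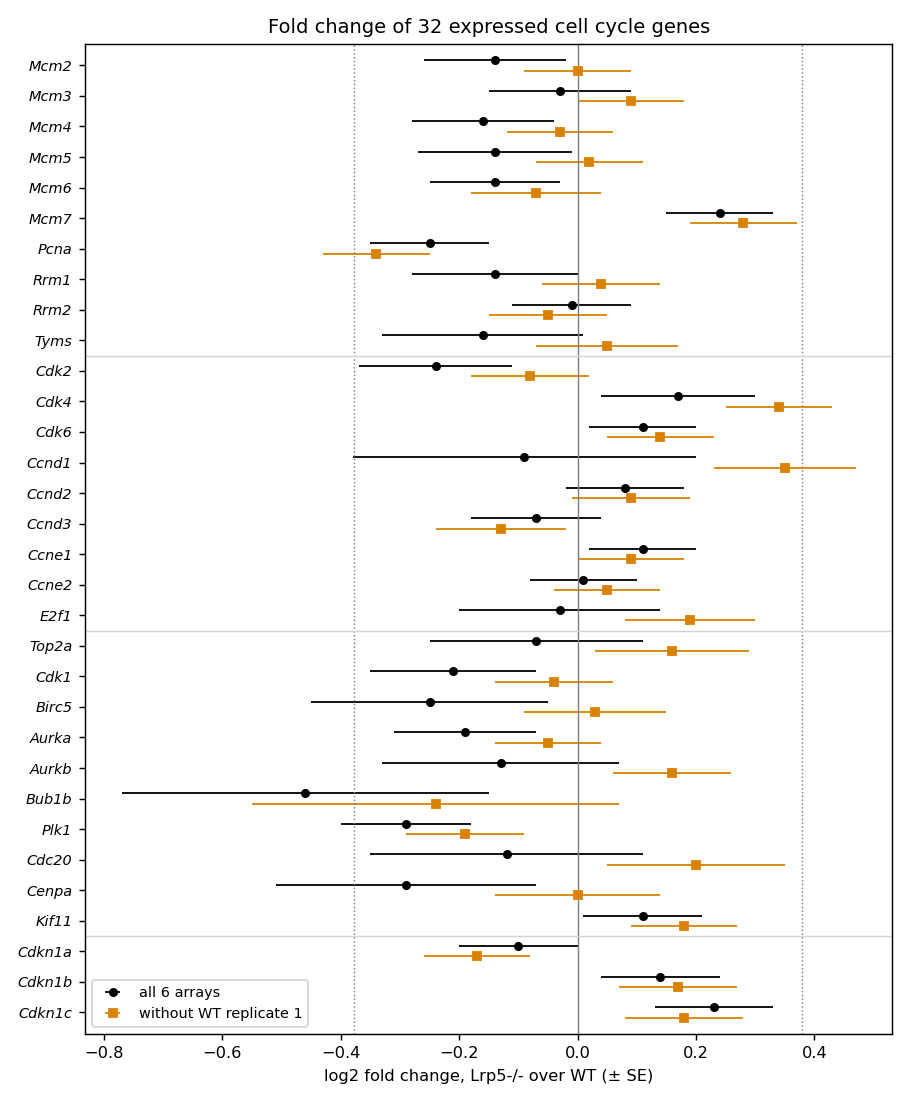
Log2 fold change (Lrp5-/- over WT, ± SE) of the 32 expressed members with all 6 arrays (black circles) and without WT replicate 1 (orange squares), with dotted lines at a 1.3-fold change. Without that array 20 of 32 values are above 0, against 9 with it, and with all arrays Bub1b alone is past a dotted line.

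Over the lists, the deviation of an array was taken as its log2 signal minus the mean of the 6 arrays, and the median over genes was taken. On WT 1 it was 0.56 for the 10 mitosis members, 0.29 for the 10 S phase members, 0.08 for G1 and G1/S and -0.10 for the CDK inhibitors, against 0.01 for all expressed probes. On Lrp5-/- 3 it was 0.11, 0.02, 0.12 and 0.06. The mitosis genes were lowest on Lrp5-/- 2, at -0.26. With each array scaled to a common median, all probes of WT 1 shifted together, so the lists were also set against all probes of the same array. Relative to them, the mitosis members on WT 1 lay 0.54 to 0.77 higher under 4 ways of normalizing, the S phase members 0.22 to 0.38 higher, the G1 and G1/S members 0.07 to 0.26 higher, and the CDK inhibitors 0.08 to 0.20 lower. With common median scaling the G1 and G1/S members were at 0.26 and the S phase members at 0.22, so the order of these groups depended on the normalization.

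Genes of the cycle outside the set were taken from further lists. Of 36 other expressed genes of G2 and mitosis, 24 were highest on WT 1, with a median deviation of 0.24, and 0 passed the adjusted or the unadjusted threshold between the groups. Of these, Cenpn read 137.5, 137.2 and 138.6 in Lrp5-/- and 167.1, 146.5 and 156.3 in WT retinas, with no overlap. It had the smallest p of the list (log2 fold change -0.18, adjusted p = 0.987 from limma). Ncapd2 came next, with 144.8, 169.2 and 195.1 against 207.6, 190.9 and 194.8. Anln, a scaffold of the cleavage furrow, read 104.1, 101.7 and 121.3 in Lrp5-/- and 163.5, 110.4 and 123.0 in WT retinas. Mybl2, the B-Myb factor that acts at CHR promoters, read 82.0, 82.5 and 85.4 against 113.0, 89.5 and 85.4. Of 30 other S phase genes, 11 were highest on WT 1, which is 36.7% against the 29.2% of all probes, with a median deviation of 0.05. None of the 30 passed the adjusted threshold, and 4 passed the unadjusted one.

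Among those 4, the licensing factor Cdt1, which loads the helicase, read 199.2, 202.3 and 208.8 in Lrp5-/- and 234.7, 253.5 and 249.0 in WT retinas, with no overlap (log2 fold change -0.27, SE 0.09, adjusted p = 0.804 from limma). Thymidine kinase Tk1 and the helicase activator Cdc45 were also lower in Lrp5-/- by the unadjusted p (-0.27 and -0.22, adjusted p = 0.94 and 0.987). Rpa2, a subunit of the single-strand binding protein, was higher (0.28, adjusted p = 0.816). Of 27 other G1/S regulators and arrest genes, 16 were highest on WT 1 (59.3%), with a median deviation of 0.14, and 0 passed either threshold. The smallest p values were those of the pocket protein gene Rbl1 (-0.20) and the inhibitor Cdkn2d (0.21), both with an adjusted p of 0.987.

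The retinal progenitor list held 21 expressed genes, and 5 of them were highest on WT 1 (23.8%). Its median deviation was 0.09 on WT 1 and 0.15 on Lrp5-/- 3. None passed the adjusted threshold. Id1, an inhibitor of differentiation factors that BMP signals induce, came nearest, with 392.1, 369.5 and 379.5 in Lrp5-/- and 282.7, 290.7 and 266.3 in WT retinas (log2 fold change 0.44, SE 0.09, adjusted p = 0.134 from limma). On the same log2 scale the fold change was 0.31 for Hey1 (adjusted p = 0.618), -0.34 for the Notch target Hes5 (adjusted p = 0.9) and -0.25 for Hes1 (adjusted p = 0.966). Rod genes, the most abundant postmitotic program, had a median deviation of -0.10 on WT 1, and relative to all probes -0.40 to -0.11 under the 4 normalizations.

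**Figure D4:**
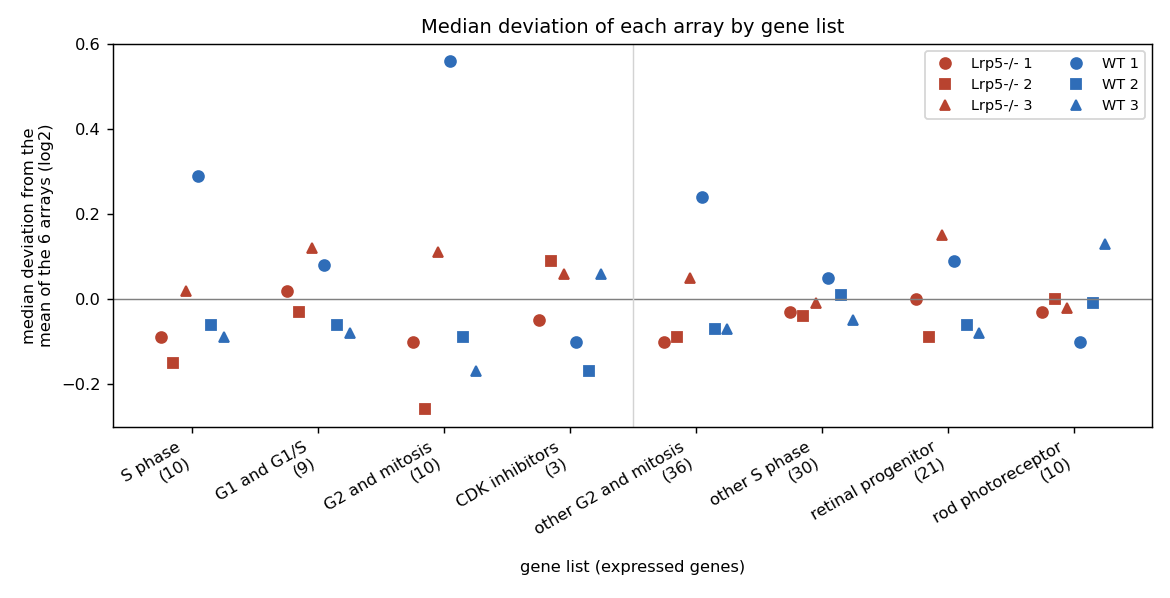
Median deviation of each array from the mean of the 6 arrays (log2 signal) for 4 groups of members and 4 further lists, with the number of expressed genes in brackets. WT 1 (blue circle) is highest for the S phase and mitosis members and for the further mitosis and S phase lists plotted, with 0.56 for the mitosis members and 0.05 for the other S phase genes. In these rank invariant values it is not highest for the G1 and G1/S members, the CDK inhibitors, progenitor or rod genes, but set against all probes with common median scaling the G1 and G1/S members are highest on WT 1 (0.26 against 0.10 on Lrp5-/- 3).

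Genes of other tissues were also high on some of the arrays that were high for the mitosis genes. The 6 expressed lens genes summed to 314, 1390 and 1080 in Lrp5-/- and 1210, 608 and 328 in WT retinas, with the highest sum on Lrp5-/- 2. By the median deviation they were highest on WT 1 (0.77), the array that was highest for the mitosis members, and then on Lrp5-/- 2 (0.49) and Lrp5-/- 3 (0.47). The 6 pigment genes had median deviations of 0.68 on WT 3, 0.51 on WT 1 and 0.36 on Lrp5-/- 3, and were below 0 on the other arrays. Relative to all probes, the lens list on WT 1 lay 0.74 to 1.11 higher and the pigment list 0.33 to 0.58 higher under the same 4 normalizations. The part of these tissues, and of the low brightness of WT 1, in the members' values was not tested.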

How the data were processed

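Total RNA from the retinas of 6 mice at P8 was labelled with biotin and hybridized to Illumina Mouse-WG6 arrays, 1 per mouse. The deposited signal intensity of each probe was normalized between arrays by the authors with the rank invariant algorithm, background not subtracted, and a non-normalized table was also used. The deposited detection p-value compares each probe with negative control beads. Of 45281 probes, 34885 had 1 gene symbol, 18 several and 10378 none.

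Signals were floored at 16 and log2 transformed, and 20721 probes with a detection p under 0.05 on at least 3 arrays were fitted with limma 3.58.1 in R 4.3.3 (lmFit, eBayes, no block) with Benjamini-Hochberg adjustment. The fit was tested on simulated data. Fold changes include background and so understate low genes, and the number of arrays limits the precision. Nothing in the labels says whether the mice were littermates. The members and lists were chosen with earlier results of these data known, and no list was tested as a set. All 40 members are accounted for. Single arrays are given for members past an unadjusted p of 0.05 or a 1.3-fold change, with or without WT replicate 1, for Ccnd1, Cdkn1b and Cdkn1c and for the widest-ranging S phase and mitosis members. Up to 4 genes of smallest p come from each further list. Cenpa, Birc5, Cdc20, Aurkb, Aurka, Cdk1, Top2a, Kif11, Mcm5, Rrm1, Rrm2, E2f1, Cdk2 and Cdkn1a were added after their values were seen. Alternatives covered normalization, offset, filter, weights, probe choice and each array left out.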

Additional observations from a re-analysis of the deposited data

How the results depend on the processing

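No member gene passed the adjusted threshold under any of the 20 alternatives, and the smallest adjusted p over them was 0.217, for Cdk4 without WT replicate 1. The replicate numbers did not pair the samples (correlations of deviations -0.211, -0.15 and -0.279, none matching its own number), and with the number as a block 0 members were called, 13 probes were called in place of 24, and the median stayed at -0.11. The count past an unadjusted p with a 1.3-fold change was 0 on all arrays, 2 with neqc background correction (Pcna and Plk1 lower) and 1 when arrays were scaled to a common median (Cdk4 higher). The count past the unadjusted p alone, 4 on all arrays, was 2 with quantile normalization (Mcm7 and Plk1), 0 with non-normalized signals, 1 without Lrp5-/- replicate 1 (Plk1) and 1 without Lrp5-/- replicate 2 (Mcm7). It was 1 with common median scaling (Cdk4), so 0 of the 4 genes were left there. With single arrays left out the count with the 1.3-fold change ranged from 0 to 1: it was 1 without Lrp5-/- replicate 3 or WT replicate 2 (Bub1b, log2 fold change -0.76 and -0.85) and without WT replicate 3 (Cenpa, -0.50). The median log2 fold change of the members was -0.11, and -0.21 to 0.04 with single arrays left out, with 0.04 without WT replicate 1, 0.02 with array weights, 0.05 with common median scaling (all probes 0.12) and -0.03 with the next brightest probes. Of 635 values of single genes under the alternatives, 576 kept their sign and 59 changed it, none of them called. Filters on detection also moved the number of genes: 27 when detected on all 6 arrays and 38 with no filter. Probes within a few units of the undetected level, such as those of Kif11, Rrm2, Ccne1, Cdk6 and Pcna, limit what can be seen for these genes.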

Other observations

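The 100 genes furthest above the median of the other arrays on WT replicate 1, out of 11097 expressed genes, were chosen after their values were seen. Among them were 7 of the 32 expressed members and 5 of the 36 expressed genes of the other mitosis list. A further 8 were genes of the H2ac histone family, of which 13 were expressed. These replication-dependent histone genes share near-identical sequences, so their values are uncertain as values of single genes. H2ac15 read 301.7, 572.5 and 783.1 in Lrp5-/- retinas 1 to 3 and 1510.0, 640.8 and 496.9 in WT retinas, and H2ac22 read 248.1, 509.1 and 754.1 against 1150.0, 478.8 and 427.9. Both were highest on WT 1 and second on Lrp5-/- 3, the order of arrays that Ccnd1, Cenpa and Birc5 had. Lor, a cornified envelope gene, stood out on the same array alone, with 842.4 on WT 1 and 195.5 to 244.2 on the other arrays. So did Lgals7 (155.9 on WT 1, 55.0 to 76.2 elsewhere), Cdsn (110.9, 58.7 to 66.2) and Lce1c (104.6, 60.1 to 64.9). The source of these signals was not tested. The same 100 genes held other kinds too, such as the ribosomal protein genes Rpl23 and Rps29 and the crystallin genes Crygb and Cryba2. Cldn5 and Slc38a5, which were called lower in Lrp5-/- retinas, were also among them. Over all expressed probes, WT 1 lay furthest from its group mean (SD of residuals 0.174, against 0.1 to 0.129 on the other arrays). The part of this wider spread in the members' values was not tested.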
